A study of Macaca mulatta with 10 samples.

Results

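Mitochondrial ribosomal proteins, the protein subunits of the ribosome that works inside mitochondria, were taken as every row of the deposited gene table whose symbol begins with MRPL or MRPS followed by a digit. This gave 76 of 18622 rows, of which 48 carried an MRPL symbol (large subunit) and 28 an MRPS symbol (small subunit). The samples were lymph nodes from 10 male rhesus macaques, each read once on an Illumina HumanRef-8 bead array designed for human transcripts. There were 5 animals under stable and 5 under unstable social conditions. The age labels, which carry no unit, were 5.73 to 5.87 in the stable group, 6.7 to 6.84 in unstable animals 1 to 3, and 5.62 and 5.61 in unstable animals 4 and 5. By the array identifiers in the labels, slide 1 held 4 arrays (stable 5, unstable 1, 2 and 3), slide 2 the arrays of the other 4 stable animals, and slide 3 those of unstable 4 and 5. Social condition, slide and age therefore cannot be told apart in full, and slide 1, with 1 stable animal, was the only slide on which both groups were present.

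The mitochondrial ribosome makes the few proteins that are still encoded in mitochondrial DNA, all of them core parts of the respiratory chain and ATP synthase. Its RNA comes from mitochondrial DNA, whereas its proteins are encoded in the nucleus, made in the cytosol and imported. Many of its subunits descend from those of the bacterial ribosome, and the rest were added in mitochondria. In lymph nodes, activated lymphocytes build up mitochondria and their translation machinery before they divide.

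The tissue label was checked against marker genes. All 7 measured T cell markers, among them CD3D and CD3E of the T cell receptor complex, were above background on 10 arrays, as were the B cell genes CD79A, CD79B and CD22 and the stromal chemokines CCL19, CCL21 and CXCL13. MS4A1, BLK and PAX5 of B cells and XLKD1 of lymphatic vessels were above background on 0 arrays. Of 8 skeletal muscle markers, only DES was above background on 3 or more arrays. Of 10 adipocyte markers 6 were above background on 3 or more arrays, while ADIPOQ and PLIN, which define fat cells, were so on 2 arrays and 1 array. The mean of that list was 7.43 to 7.82 in the stable animals and 7.51 to 7.84 in 4 unstable animals, with unstable animal 4 at 8.40. Erythroid markers, 3 of 7 above background on 3 or more arrays, had a mean of 8.11 to 8.44 in the stable and 7.88 to 8.21 in the unstable animals, and the neutrophil markers, 4 of 7 above background, one of 7.13 to 7.93 and 7.04 to 7.21. Their part in the results below was not tested. Between 41.2% and 41.8% of gene rows were above background on an array. Of the 76 mitochondrial ribosomal protein rows, 62 were above background on 3 or more arrays, 3 on 1 or 2 arrays (MRPL15, MRPL28 and MRPS18B) and 11 on 0 arrays. Lymph nodes were measured in bulk, so fewer cells of a type and less RNA per cell cannot be told apart.

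Neither subunit was separated between the social conditions. The mean log2 value over the 28 MRPS rows was 8.47, 8.53, 8.41, 8.37 and 8.50 in stable animals 1 to 5 and 8.45, 8.43, 8.51, 8.61 and 8.54 in unstable animals 1 to 5. Unstable animals 4 and 5 were the highest of the 10, and the other 3 unstable animals lay within the stable range. Over the 48 MRPL rows the means were 8.10, 8.18, 8.11, 8.08 and 8.15 in the stable and 8.10, 8.10, 8.12, 8.20 and 8.15 in the unstable animals, again with unstable animal 4 at the top and the groups overlapping. For MRPS rows the stable group averaged 8.46 ± 0.068 and the unstable group 8.51 ± 0.073 (SD, n = 5 each). For MRPL rows the averages were 8.12 ± 0.039 and 8.13 ± 0.044 (SD, n = 5 each). The difference was smaller than the spread between animals in both subunits.

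**Figure D1:**
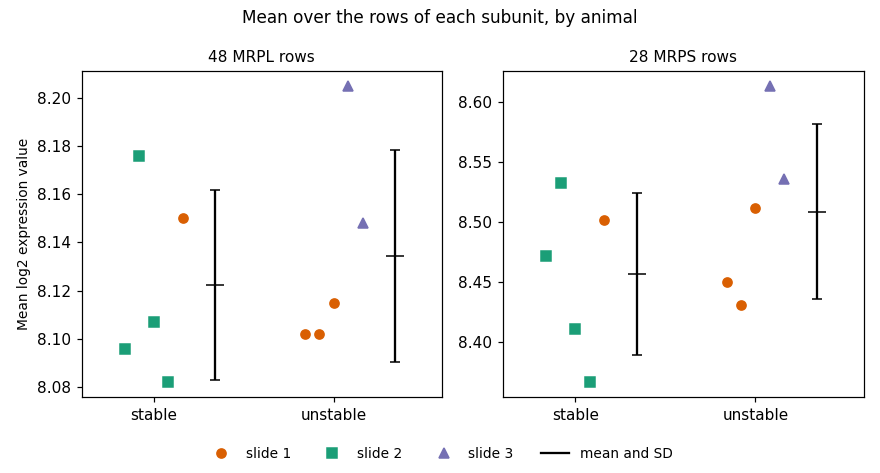
Mean log2 expression value over the 48 MRPL rows (left) and the 28 MRPS rows (right) in each animal, with colour and shape for the slide and bars for the group mean and SD. Unstable animal 4, on slide 3, is highest in both panels at 8.20 and 8.61, and the other unstable values overlap the stable ones.

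Small subunit rows nonetheless leaned more to one side than large subunit rows. Of the 28 MRPS rows 20 had a higher mean in unstable animals, with a median difference of 0.072 log2 units. Of the 48 MRPL rows 26 had a higher mean, with a median of 0.011. Over all 18622 rows 48.9% had a higher mean and the median was -0.0015. Within each animal, the MRPL mean minus the MRPS mean was -0.38, -0.36, -0.30, -0.29 and -0.35 in stable animals 1 to 5. It was -0.35, -0.33, -0.40, -0.41 and -0.39 in unstable animals 1 to 5, a change of -0.040 between group means. The lowest 3 values were those of unstable animals 3, 4 and 5, and the other 2 unstable animals lay inside the stable range. No test was made of this contrast, since the members were chosen with results known.

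The lean of the small subunit rows depended on which animals and slides were compared. Within slide 1, where stable animal 5 was the only stable animal, the median difference was -0.012 for MRPS and -0.0059 for MRPL rows. There 13 of 28 and 21 of 48 had a higher mean, beside 50.8% of all rows. Without unstable animal 4 the median was 0.043 for MRPS rows, 20 of 28 still with a higher mean, and -0.016 for MRPL rows, 22 of 48 with a higher mean. Leaving out stable animal 4 gave 0.038 and 0.0034, and leaving out stable animal 3 gave 0.042 for MRPS rows. Without the 3 older unstable animals the median was 0.093 for MRPS and 0.031 for MRPL rows. There 22 of 28 and 31 of 48 had a higher mean, beside 47.9% of all rows. The unstable animals left in that comparison were all on slide 3. With age as a covariate the medians were 0.091 and 0.030. With normexp background correction and median scaling 34 of 48 MRPL and 22 of 27 MRPS rows had a higher mean, beside 51% of all rows in that fit. 

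None of the 76 rows passed an adjusted p of 0.05 in limma, where 0% of all rows passed, and 10 had an unadjusted p under 0.05. That share of the members, 13.2%, stands beside 5.13% of all rows. All 10 were among the rows above background on 3 or more arrays. There the shares were 15.8% of 38 MRPL rows, 16.7% of 24 MRPS rows and 7.01% of all 8305 rows. Fitted on those 8305 rows alone, 6 of 62 members had a limma p under 0.05, beside 5.09% of the rows. Of the 10 in the main fit, 7 had a higher mean in unstable animals, beside 2.41% of all rows, and 3 a lower mean, beside 2.73% of all rows. The count was 6 of the 48 MRPL and 4 of the 28 MRPS rows. Without stable animal 4 the MRPL count was 2, without unstable animal 2 it was 3, and without stable animal 5 the MRPS count was 2. The smallest adjusted p of any member was 0.892, for MRPS33.

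**Figure D2:**
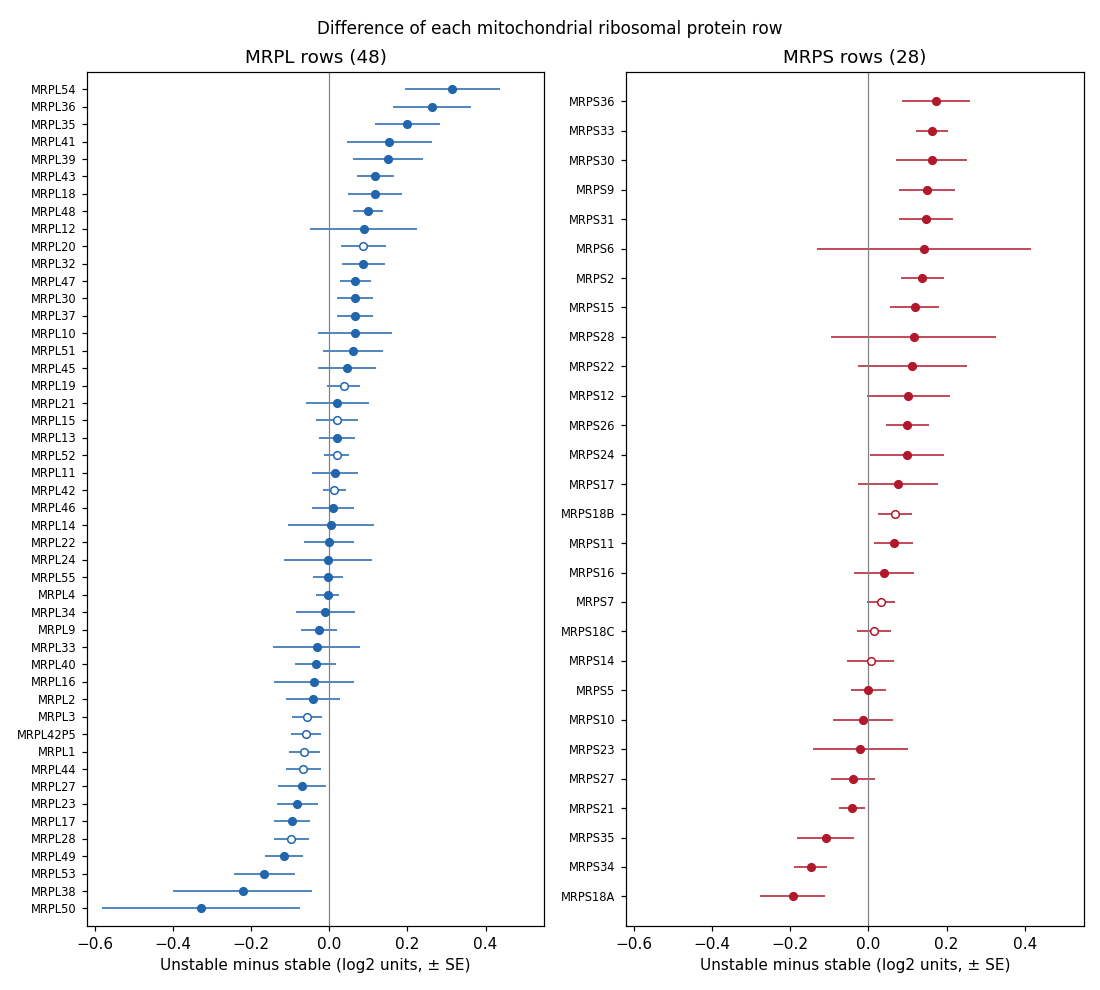
Unstable minus stable difference in log2 units with its limma standard error for each of the 48 MRPL rows (left) and 28 MRPS rows (right). Open points mark rows above background on fewer than 3 arrays. MRPL differences lie on both sides of 0 with a median of 0.011, and MRPS differences lie mostly to the right with a median of 0.072.

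Among small subunit rows, MRPS33 and MRPS34, both proteins that mitochondria added to the ribosome, were the only 2 members whose groups did not overlap, in opposite directions. MRPS33 stood at 8.74, 8.85, 8.89, 8.85 and 8.87 in stable animals 1 to 5 and at 8.95, 8.93, 9.07, 9.08 and 8.98 in unstable animals 1 to 5. Every unstable animal was above every stable one, a pattern found with this direction in 0.322% of all rows. The group means were 8.84 ± 0.058 and 9.0 ± 0.068 (SD, n = 5 each), a difference of 0.16 (SE 0.041, limma adjusted p = 0.892). Within slide 1 the difference was 0.11.

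MRPS34, in which variants cause a mitochondrial disease in humans, stood at 7.13, 7.15, 7.02, 7.0 and 7.15 in the stable and at 6.88, 6.94, 6.99, 6.99 and 6.91 in the unstable animals. All unstable values were below all stable ones, by less than the spread within either group, a pattern of 0.516% of all rows. The difference was -0.15 (SE 0.042, limma adjusted p = 0.918), and -0.21 within slide 1. These values lie near the background limit of 6.9, and MRPS34 was above it on 9 arrays. With normexp correction and quantile scaling the difference was -0.31.

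MRPS2, the homologue of bacterial S2, stood at 7.30, 7.34, 7.15, 7.28 and 7.17 in the stable and 7.35, 7.23, 7.40, 7.48 and 7.47 in the unstable animals. Only unstable animal 2 lay inside the stable range. The difference was 0.14 (SE 0.056, limma adjusted p = 0.942), with 0.16 within slide 1 and 0.24 with normexp and quantile. MRPS31 and MRPS9, a mitochondrion-specific protein and the homologue of bacterial S9, had differences of 0.15 (SE 0.069) and 0.15 (SE 0.072), and within slide 1 of 0.098 and 0.035. Without the 3 older unstable animals MRPS9 differed by 0.28 and MRPS2 by 0.23.

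MRPS18A, described with its paralogues, had the lowest difference of the 28 MRPS rows. MRPS35 differed by -0.11 (SE 0.073) over all animals, by -0.23 within slide 1 and by 0.026 without the older animals, which turns its direction. MRPS21, the homologue of bacterial S21, differed by -0.042 (SE 0.033), and MRPS27, an RNA-binding protein of the pentatricopeptide repeat type, by -0.039 (SE 0.056). Within slide 1 MRPS21 was at 0.045, and without the older animals MRPS27 was at 0.041, each on the other side of 0. MRPS12, the homologue of the bacterial decoding-centre protein S12, differed by 0.10 (SE 0.11) and by -0.17 within slide 1, and by 0.015 in the lowest of the fits with 1 animal left out.

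Among large subunit rows with higher means, MRPL36 had the smallest unadjusted p. This homologue of bacterial L36, a very small zinc-binding protein, stood at 10.11, 10.53, 10.21, 10.08 and 10.31 in the stable and at 10.36, 10.39, 10.54, 10.79 and 10.47 in the unstable animals. Stable animal 2 lay within the unstable range and the other 4 stable animals were below all unstable ones. The difference was 0.26 (SE 0.099, limma adjusted p = 0.942) and 0.12 within slide 1. MRPL48 stood at 6.82, 6.82, 6.71, 6.76 and 6.76 in the stable and at 6.78, 6.91, 6.83, 6.92 and 6.91 in the unstable animals, a difference of 0.099 (SE 0.038, limma adjusted p = 0.942). It was above background on 3 arrays, and with normexp and quantile its difference was 0.26.

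MRPL54, MRPL43 and MRPL35 complete the large subunit rows with higher means and a limma p under 0.05. MRPL54, a mitochondrion-specific protein, had the widest difference of all 76 rows in this direction at 0.31 (SE 0.12), from 7.25 ± 0.144 in stable to 7.56 ± 0.271 in unstable animals (SD, n = 5 each). Unstable animal 3 was at 7.12, and the other 4 unstable animals at 7.53 to 7.84 were above every stable animal, the highest of which was at 7.45. MRPL43 differed by 0.12 (SE 0.048) and MRPL35, the homologue of bacterial L35, by 0.20 (SE 0.083). MRPL35 differed by 0.13 without unstable animal 4, which stood at 9.03 against 8.64 to 8.74 in the other unstable animals. With normexp and quantile MRPL54 was at 0.52.

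Large subunit rows with lower means were led by MRPL49, a mitochondrion-specific protein, with 7.10, 7.28, 7.20, 7.15 and 7.08 in the stable and 7.03, 7.02, 7.15, 6.95 and 7.10 in the unstable animals. The groups overlapped through unstable animals 3 and 5. The difference was -0.11 (SE 0.049, limma adjusted p = 0.942), -0.012 within slide 1 and -0.23 with normexp and quantile. MRPL28, the homologue of bacterial L28, stood at 6.96, 6.96, 6.76, 6.83 and 6.82 in the stable and 6.80, 6.80, 6.78, 6.75 and 6.71 in the unstable animals. It was above background on 2 arrays only, those of stable animals 1 and 2. Its difference was -0.097 (SE 0.045, limma adjusted p = 0.942), -0.024 within slide 1 and -0.25 with normexp and quantile. MRPL53, mitochondrion-specific, and MRPL17, the homologue of bacterial L17, differed by -0.17 (SE 0.078) and -0.095 (SE 0.046). The pseudogene row MRPL42P5 was above background on 0 arrays and differed by -0.059 (SE 0.037).

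**Figure D3:**
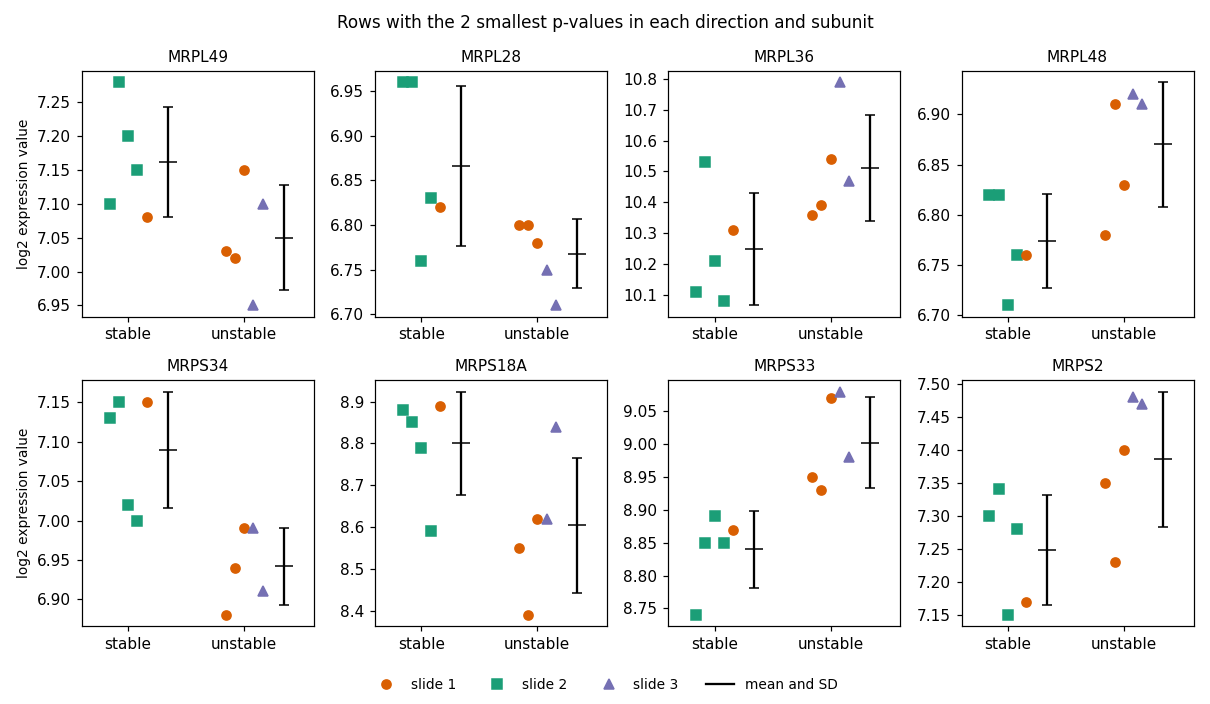
Log2 expression value in each animal for the 8 rows with the 2 smallest limma p-values in each direction and subunit, with colour and shape for the slide and bars for the group mean and SD. The groups are separate for MRPS33 and, narrowly, MRPS34, and overlap in the other 6 panels.

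Symbols do not always match the subunit in which a protein sits. In structures of the mammalian mitochondrial ribosome MRPS18A and MRPS30 belong to the large subunit, and MRPS36 is now known as KGD4, a component of the 2-oxoglutarate dehydrogenase complex. The macaque annotation used here also lists MRPS36 as a synonym of KGD4. With these placements, and without the pseudogene row, 27 of 49 large subunit and 18 of 25 small subunit rows had a higher mean. The medians were 0.012 and 0.068, and the change of large minus small was -0.040, as before. Small subunit proteins with bacterial homologues had a higher mean in 13 of 16 cases, and the mitochondrion-specific ones in 5 of 9, with medians of 0.070 and 0.068. In the large subunit these counts were 15 of 30 and 12 of 19, with medians of 0.0021 and 0.019. In these counts MRPS18A was placed with the bacterial homologues of the large subunit and MRPS18B with the mitochondrion-specific small subunit proteins. Both share ancestry with bacterial S18, as described below. The median of 0.068 for the mitochondrion-specific small subunit proteins is the value of MRPS18B itself, so it depends on that placement. This grouping was made after the values were seen and was not tested.

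The 3 MRPS18 paralogues, which share ancestry with bacterial S18 and take different places in the ribosome, did not show one direction. MRPS18A stood at 8.88, 8.85, 8.79, 8.59 and 8.89 in the stable and 8.55, 8.39, 8.62, 8.62 and 8.84 in the unstable animals. Stable animals 3 and 4 were inside the unstable range and unstable animals 3, 4 and 5 were inside the stable range. MRPS18A differed by -0.19 (SE 0.083, limma adjusted p = 0.942), by -0.36 within slide 1 and by -0.069 without the older animals. MRPS18B, above background on 2 arrays, and MRPS18C, above background on 0, differed by 0.068 (SE 0.043) and 0.015 (SE 0.044), and within slide 1 by -0.021 and -0.0031. MRPS30 differed by 0.16 (SE 0.091), by 0.083 without unstable animal 4 and, on the other side of 0, by -0.055 within slide 1. MRPS36 differed by 0.17 (SE 0.087), and by 0.080 without unstable animal 4, which stood at 8.09 against 7.48 to 7.66 in the other 9 animals.

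Several rows pool probes with unlike differences, though no pair was shown to differ by test. By matching values between the deposited tables, 56 members were equal to 1 probe, 13 to the mean of 2 probes and 6 to the mean of 3, and only MRPS12 was left unmatched. Of the 19 rows that pool probes, 11 held probes whose differences had opposite signs. Some of these lay close to 0, as for MRPL4 at -0.012, 0.013 and -0.0084. The same share among other rows that pool probes was not counted, so the 11 are a description only. The brighter MRPS33 probe stood at 9.44, 9.66, 9.61, 9.59 and 9.56 in the stable and at 9.71, 9.70, 9.90, 9.88 and 9.74 in the unstable animals, a difference of 0.22 (SE 0.055). Its groups did not overlap. The other MRPS33 probe, also above background on 10 arrays, was at 7.96 ± 0.152 and 7.98 ± 0.071 (SD, n = 5 each), a difference of 0.018 (SE 0.069), with overlapping groups. Within slide 1 the first probe differed by 0.22 and the second by -0.18. For MRPL43 the brightest of 3 probes stood at 9.77 to 9.97 in the stable and 10.01 to 10.26 in the unstable animals, again without overlap, with a difference of 0.18 (SE 0.057). The MRPL43 row itself overlapped, at up to 8.81 in the stable and from 8.77 in the unstable animals. How often single probes separate the groups over the whole intensity table is not given here. The second MRPL43 probe differed by -0.026 (SE 0.081) and the third, above background on 1 array, by -0.0070 (SE 0.063).

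The MRPL35 row likewise rested on 1 bright probe with a difference of 0.24 (SE 0.096), beside a pair above background on 0 arrays with -0.060 and 0.087. For each of the 31 pairs of probes of a gene, the change in their log ratio was compared between groups with an exact permutation test (two-sided, all 252 regroupings), in which p cannot fall below 0.00794. The smallest was 0.0238 for MRPL52, whose probes were both above background on 0 arrays, and the MRPS33 pair gave an exact p of 0.111 with a change of 0.20. After adjustment over the 31 pairs the smallest exact p was 0.41. Signals of dim probes are compressed toward background, and the part of this in the smaller differences was not tested.

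**Figure D4:**
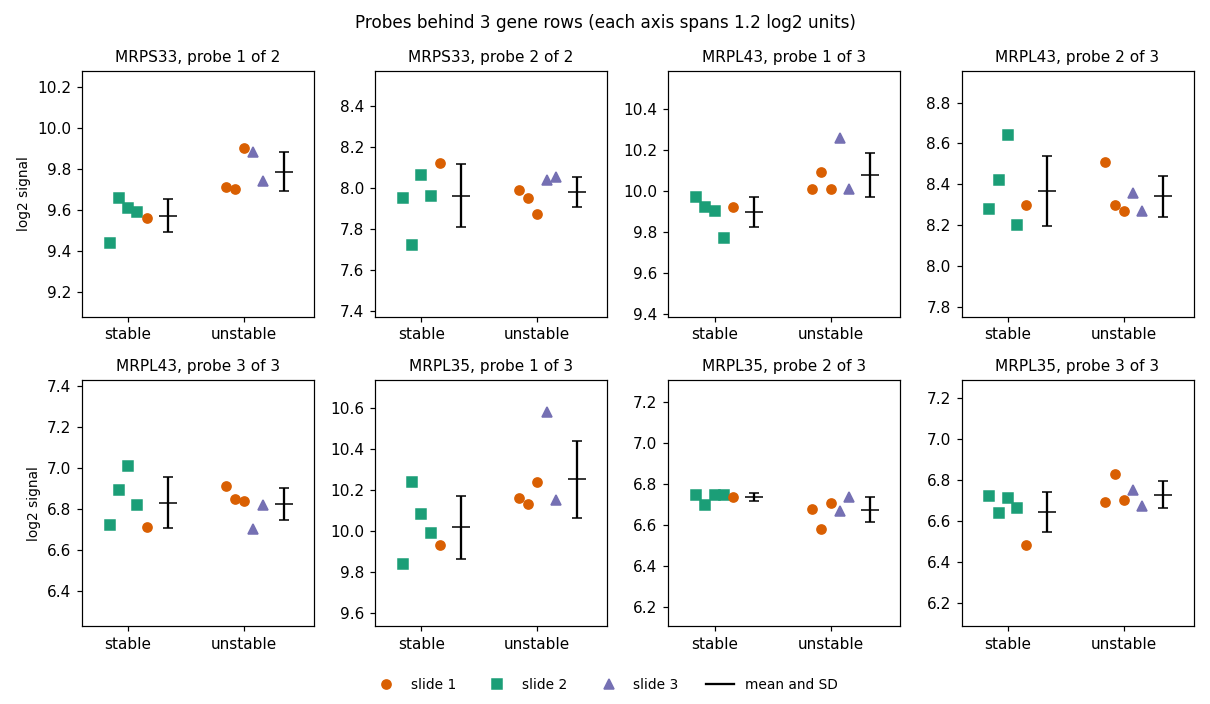
Log2 signal in each animal for the 8 probes behind the MRPS33, MRPL43 and MRPL35 rows, numbered from the brightest probe, with colour and shape for the slide and bars for the group mean and SD. The brightest probe of MRPS33 and of MRPL43 separates the groups, and the other probes of these genes do not. The share of all probes with separate groups is not given.

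Among the rows with the widest spread between animals, MRPL50, MRPL38 and MRPS28 fell into steps that did not follow the group labels. The steps were singled out after the values were seen. MRPL50 and MRPS28 were named because of them, while MRPL38 was in the fixed set of named members. A gap of 0.5 log2 units or more between neighbouring values occurred in 2 of the 76 members, MRPL38 and MRPL50. This is 2.63%, beside 4.94% of the rows above background on 3 or more arrays. Only 62 of the 76 members were above background on that many arrays, so these shares cover unlike sets of rows. MRPL50, a mitochondrion-specific protein, stood at 8.07 and 8.36 in stable animals 2 and 5 and 7.95 in unstable animal 3, while the other 7 animals were at 7.0 to 7.33. A gap at least as wide as its 0.63 log2 units occurred in 3.02% of the rows above background on 3 or more arrays. MRPS28, a mitochondrial protein of the small subunit, was lowest in unstable animal 1 (7.92) and stable animal 4 (7.96), with the other 8 animals at 8.45 to 8.92. Its widest gap, 0.499, was just under the 0.5 limit. MRPL38 stood at 7.85 in stable animal 5 and at 6.72 to 6.91 in the other 9, around the background limit of 6.9. It was above background on 3 arrays.

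MRPL38 was also the only gene row to pass when slide was a fixed block, at a difference of -1.0 (limma adjusted p = 0.0291), where 0.00537% of all rows passed. In that fit the group difference rests on slide 1, and stable animal 5 is the only stable animal on it. Fitted on slide 1 alone, the same MRPL38 difference had a limma adjusted p of 0.228, and without stable animal 5 the difference over all slides was -0.024. MRPL50 differed by -0.33 (SE 0.25) over all animals and by -0.87 within slide 1, where stable animal 5 was again the only stable one, and by -0.15 without that animal. Probes for human transcripts can bind worse where an animal's sequence differs, and whether sequence differences between animals set these steps was not tested.

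**Figure D5:**
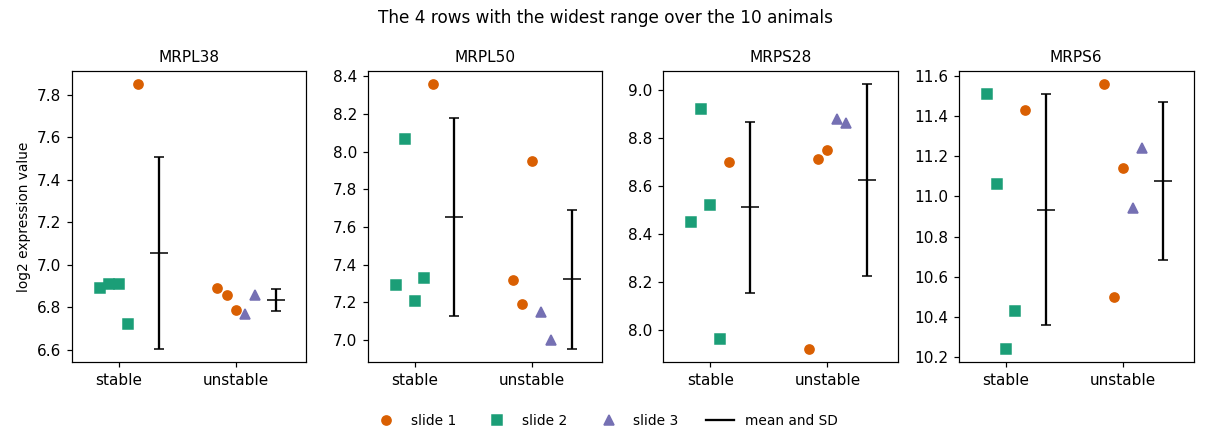
Log2 expression value in each animal for the 4 rows with the widest range over the 10 animals, with colour and shape for the slide and bars for the group mean and SD. MRPL38 is high in stable animal 5 alone, MRPL50 is at 7.95 or above in 3 animals, MRPS28 is below 8 in 2 animals, and MRPS6 spans 10.24 to 11.56.

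One animal carried many of the highest values. Unstable animal 4 had the highest value of the 10 in 27 of the 76 rows, 17 MRPL and 10 MRPS, or 35.5%, whereas it was highest in 12.8% of the rows above background on 3 or more arrays. Stable animal 2 followed with 14 rows, or 18.4%, beside 14% of those rows. Stable animal 4 was below the row's 10-animal mean in 23 of 28 MRPS and 27 of 48 MRPL rows, beside 53.5% of the rows above background, a share near that of the MRPL rows. The member counts here take all 76 rows, of which 62 were above background on 3 or more arrays. The shares set beside them therefore cover an unlike set of rows. Unstable animal 4 also had the highest mean of respiratory complex I genes, 9.18 against 8.86 to 8.96 in the other 9 animals, and of complexes II to V, 9.14 against 8.76 to 8.87. Its adipocyte marker mean of 8.40 lay above the 7.43 to 7.84 of the others. The part of fat tissue in these values was not tested. MRPL12, the stalk protein that is reported to bind mitochondrial RNA polymerase in human cells, shows the weight of this animal: it stood at 8.89 there and at 8.16 to 8.69 in the other 9. Its difference of 0.088 (SE 0.14) became -0.025 without it.

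The rest of the mitochondrial translation machinery showed no shared direction. Over all rows 48.9% had a higher mean and 5.13% a limma p under 0.05. Of 7 measured genes listed with the mitoribosome under other symbols, OXA1L included, 3 had a higher mean. ICT1, a peptidyl-tRNA hydrolase built into the large subunit, was at -0.078 (SE 0.078), within slide 1 at 0.051 and without stable animal 1 at -0.032. OXA1L, which inserts new proteins into the inner membrane, was at 0.046 (SE 0.063), and at 0.0059 without stable animal 2. Of 24 assembly genes 12 had a higher mean, and 3, or 12.5%, had a limma p under 0.05. Among them were METT5D1, a methyltransferase of small subunit RNA, at 0.17 (SE 0.058), and FTSJ2, which methylates large subunit RNA, at -0.17 (SE 0.065). Of 16 translation factors 9 had a higher mean and 0 had a limma p under 0.05. The elongation factor TUFM was at -0.14 (SE 0.075), and the deformylase PDF, above background on 0 arrays, at 0.069 (SE 0.04). Of 16 mitochondrial aminoacyl-tRNA synthetases 7 had a higher mean. NARS2, above background on 1 array, was at -0.12 (SE 0.036), and FARS2 at 0.11 (SE 0.067).

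Of 17 genes that copy and process mitochondrial DNA and RNA, 6 of them above background on 0 arrays, 13 had a lower mean, beside 51.1% of all rows. The median difference over the 17 was -0.012, smaller in size than their median standard error of 0.059. The accessory polymerase subunit POLG2 had the smallest unadjusted p among them, at 7.92, 7.84, 7.90, 7.93 and 7.98 in the stable and 7.77, 7.69, 7.75, 7.69 and 7.86 in the unstable animals. Unstable animal 5 alone lay inside the stable range, and the difference was -0.16 (SE 0.04, limma adjusted p = 0.892). The nuclease REXO2 was at 0.052 (SE 0.15). Of 8 regulators of nuclear genes for mitochondria 5 had a higher mean. PPARGC1B, a coactivator of mitochondrial biogenesis, differed by -0.054 (SE 0.038) and GABPA, a factor that binds promoters of such genes, by 0.053 (SE 0.046), both above background on 0 arrays. None of these lists held a gene that passed adjustment.

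Respiratory chain genes had mostly higher means only with unstable animal 4 included. Of 34 complex I genes 21 had a higher mean with a median of 0.052, and of 39 genes of complexes II to V 28 had a higher mean with a median of 0.045, and 0 genes of either list had a limma p under 0.05. Without unstable animal 4 these counts were 15 of 34 and 19 of 39, and the medians were -0.014 and -0.0095, on the other side of 0. Of 84 rows of cytosolic ribosomal proteins, which make up the ribosome outside mitochondria, 34 had a higher mean, with a median of -0.017. These counts come from the same 10 animals, and the differences between lists were not tested.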

How the data were processed

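Per the labels' protocols, total RNA was purified on columns with DNase treatment and converted to biotinylated cRNA. One table deposited by the authors holds probe intensity, not normalized between arrays. They also deposited a table of log2 values with 1 row per gene symbol, nearly equal in distribution on all arrays. The submitters' processing notes name GenomeStudio. The normalization is not given in the sources used here.

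The log2 table was fitted as deposited with limma 3.58.1 in R 4.3.3 (lmFit, eBayes, no covariate, two-sided), with Benjamini-Hochberg adjustment over all 18622 rows and a threshold of 0.05. The fit was tested on simulated data. Standard errors are moderated. The background limit of each array was its mode plus 3 SDs, the SD being taken from values under the mode. Rows were matched to probes of the 24526-probe intensity table after giving it the log2 table's distribution, within 0.002 log2 units for 1 probe and 0.001 for the mean of 2 or 3. That match held for 14877 and 1962 rows with 1 and 2 probes. Probe values in the text are log2 intensity, quantile normalized here.

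The members and all lists were chosen with earlier results of these data known. The text names, per subunit and direction, the 5 members of smallest p, a fixed set (MRPL12, MRPL38, MRPS12, MRPS18A, MRPS18B, MRPS18C, MRPS30 and MRPS36), and from each other list the gene with the smallest p in each direction. MRPL50, MRPL52, MRPS6, MRPS22 and MRPS28 were added after their values were seen. Of the 76 symbols 74 were found in the macaque RefSeq table (T2T-MMU8v2.0), MRPS36 as a synonym, and MRPL42P5 was not matched. No sequence table was used, so the planned promoter and protein comparisons were not made. Same-numbered animals did not deviate together (correlations -0.061 to 0.0073), so the numbers were not treated as pairs. The number of arrays limits the precision. Every sample has its own age label, but no label states how samples were drawn. The p-values therefore set each group difference against the spread between these samples.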

Additional observations from a re-analysis of the deposited data

Results flagged for a closer look

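In 82 groups of 5 values, 6 had 1 animal far from the other 4, and chance alone marks about 1 in 20 groups. Unstable animal 4 was the highest of its group for MRPL35, at 9.03 against 8.64 to 8.74, and for MRPS36, at 8.09 against 7.56 to 7.66. Stable animal 3 was the highest for MRPL17, at 9.51 against 9.32 to 9.36, and the lowest for MRPL42P5, at 6.47 against 6.59 to 6.63, a row above background on 0 arrays. Stable animal 1 was the lowest for MRPS33, at 8.74 against 8.85 to 8.89. Stable animal 5 was the highest for MRPL38, at 7.85 against 6.72 to 6.91.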

How the results depend on the processing

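With slide as a fixed block 1 gene row passed, MRPL38 (-1.0), and without the 3 older unstable animals 1 row, not a member, where condition and slide 3 cannot be told apart. The MRPL count with p under 0.05, 6 in the reported fit, was 3 with normexp and quantile, 3 over rows above background, 3 with slide as a fixed block, 9 with slide as a random block, 9 with age as a covariate, 8 without the older animals, and 2 to 6 with 1 animal left out. The MRPS count, 4 in the reported fit, was 1 with normexp and quantile, 8 with age as a covariate and 2 to 6 with 1 animal left out. Over all rows the share was 5.18% with normexp and quantile, 5.09% above background, 4.4% with the fixed and 7.52% with the random slide block, 6.18% with age and 5.34% without the older animals. The respiratory counts without unstable animal 4 were added after seeing the data. The median difference of MRPL rows was 0.053 with normexp and median scaling and -0.016 to 0.025 with 1 animal left out. That of MRPS rows was -0.012 with slide as a block or slide 1 alone and 0.038 to 0.091 with 1 animal left out. The MRPL minus MRPS change was -0.0067 within slide 1, -0.064 without the older animals and -0.051 to -0.027 with 1 animal left out. The direction turned with slide as a block and within slide 1 for MRPS6 (-0.37), MRPS28 (-0.24), MRPS22 (-0.13) and MRPL52 (-0.054). These members were added after their values were seen. The direction also turned for MRPS22 without unstable animal 4 (-0.031), MRPS6 without stable animal 3 (-0.030) and MRPS28 without stable animal 4 (-0.023). Other members not listed turned in some fits as well. The turns given next are those of genes named by rule. With slide as a block, and within slide 1, the direction turned for ICT1 (0.051), MRPS12 (-0.17), MRPS18B (-0.021), MRPS18C (-0.0031), MRPS21 (0.045) and MRPS30 (-0.055). It turned for MRPL12 without unstable animal 4 (-0.025), for MRPS18C without stable animal 1 (-0.014) or unstable animal 3 (-0.0089), and for REXO2 without stable animal 1 (-0.060). With 1 animal left out these ranged from -0.025 to 0.17, -0.014 to 0.034 and -0.060 to 0.19. Without the older animals it turned for MRPS27 (0.041), MRPS35 (0.026) and REXO2 (-0.040), and with age as a covariate for MRPS27 (0.015). The causes were not tested. The replicate block gave 0 rows past the threshold, 5 MRPL and 4 MRPS rows with p under 0.05, and changed no call.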

Other observations

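MRPS6, a homologue of bacterial S6, had the second widest range of the 76 rows, chosen after its values were seen. It stood at 11.51, 11.06, 10.24, 10.43 and 11.43 in stable animals 1 to 5 and at 11.56, 10.50, 11.14, 10.94 and 11.24 in unstable animals 1 to 5. The mean of the T cell markers stood at 9.59, 9.32, 9.01, 9.02 and 9.12 in the stable and at 9.53, 8.91, 9.16, 9.07 and 9.39 in the unstable animals. Stable animal 1 and unstable animal 1 had the highest values of both, and stable animals 3 and 4 and unstable animal 2 the lowest 3 of both. The part of T cell number in MRPS6 was not tested. MRPS22, a mitochondrion-specific protein of the small subunit, had its highest value, 10.53, in unstable animal 4, and the other 9 animals lay at 9.70 to 10.04.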
